A study of Homo sapiens with 2 samples.

Results

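To describe where TCF7L1 lay at the genes of its own family and of its partner proteins, the regions bound by FLAG-tagged TCF7L1 were collected around 10 genes: *TCF7*, *TCF7L1*, *TCF7L2* and *LEF1*, which encode the TCF/LEF factors; *CTNNB1* and *BCL9*, which encode β-catenin and its coactivator; and *TLE1*, *TLE2*, *TLE3* and *TLE4*, which encode corepressors. These are 10 of the 20033 protein-coding genes that GENCODE release 44 places on chromosomes 1 to 22, X and Y. A summit, the base where a called region is highest, was assigned to a gene when it lay inside the gene or within 250 kb of the transcription start site (TSS) of any of its transcripts. By this rule the 10 genes held 36 summits in 34 of the 3663 TCF7L1 regions, and none of the 204 TCF7L1-MUT regions.

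Both samples came from HCT116 cells, an established human colon adenocarcinoma line that carries an activating mutation in *CTNNB1*. In both, a lentiviral short hairpin RNA (shTCF7L1-2) lowered endogenous TCF7L1, and doxycycline at 1 µg/ml induced a FLAG-tagged protein from the pCW57.1 plasmid in stable, puromycin-selected cells. The groups differed in that protein. It was TCF7L1 (genotype TCF7L1 KD, pCW57.1-TCF7L1) or TCF7L1-MUT (genotype TCF7L1 KD, pCW57.1-TCF7L1-MUT), in which point mutations alter the HMG domain that contacts DNA. The regions therefore describe an exogenous, induced protein in place of the endogenous one. DNA collected with an anti-FLAG antibody was sequenced (ChIP-seq), with 1 sample in each group. No value below has a replicate check and no test between groups could be made. Intervals are 95% intervals and cover counting error only. The files held called regions and no reads. The study's quality control lists similar read numbers for both libraries, with slightly more for TCF7L1-MUT. It also lists the fraction of reads that fell in called regions, which was lower for TCF7L1-MUT than for TCF7L1.

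TCF/LEF proteins bind a short DNA element through their HMG domain and do not act alone. When β-catenin accumulates in the nucleus it binds their amino terminus and, through BCL9, recruits activators of transcription. Without it, TLE (Groucho) proteins occupy the same factors and repress. TCF7L1 acts mostly as a repressor, TCF7L2 is the most abundant member in intestinal epithelium, and *LEF1* and *TCF7* are known as Wnt targets themselves. A TCF factor at the genes of its relatives or cofactors would be a position from which the family could regulate itself, which is the question these counts address.

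TCF7L1 regions were found around most of the family, with the largest numbers at corepressor genes. Of the 10 genes, 8 had at least 1 TCF7L1 summit (80%, Wilson interval 49.0 to 94.3%), where 41.2% of all protein-coding genes did. The genes were chosen with earlier results of these data known, so the interval is not a test against that share. *TLE4* had 12 summits, *TLE3* had 8, *TCF7L2* had 6 and *LEF1* had 5. These 4 genes were the members with 5 or more summits, a count reached by 1.43% of protein-coding genes, and they held 31 of the 36 summits. *BCL9* had 2 summits, *TCF7*, *TCF7L1* and *TLE2* had 1 each, and *CTNNB1* and *TLE1* had 0.

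**Figure D1:**
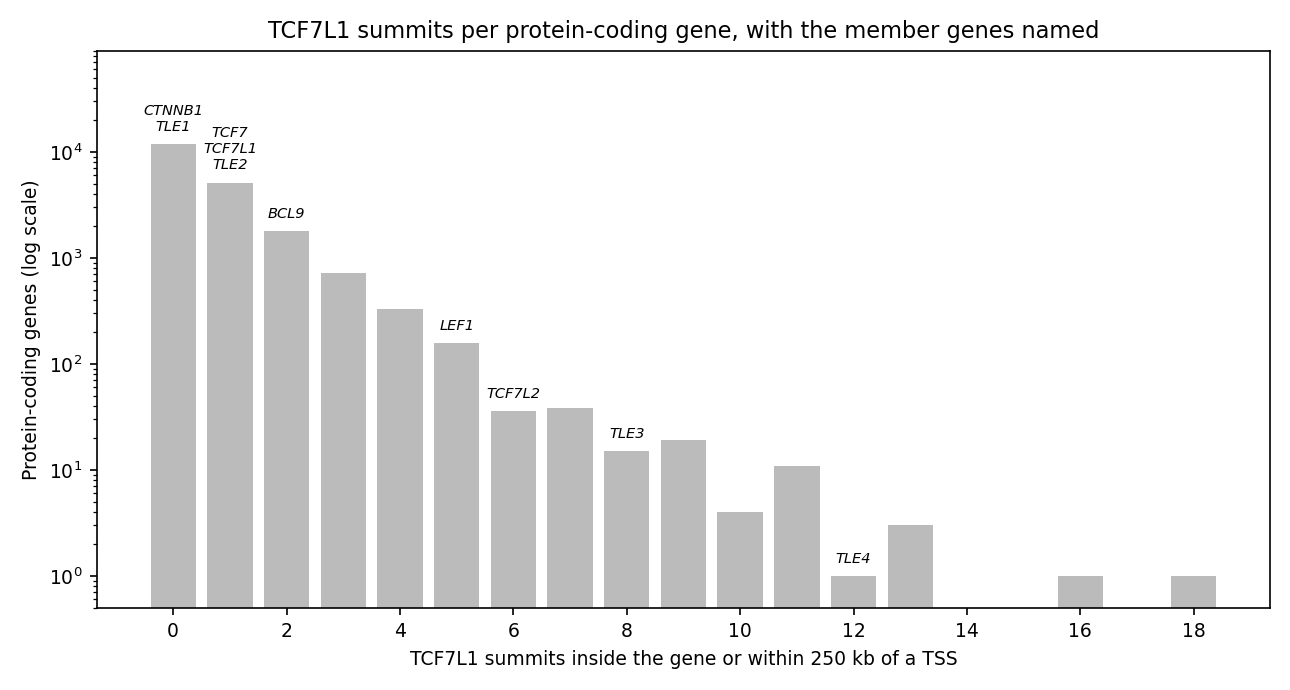
Number of protein-coding genes (vertical axis, log scale) by the number of TCF7L1 summits inside the gene or within 250 kb of a TSS (horizontal axis), with the 10 genes named above their bars. *TLE4* lies at 12 summits and *TLE3* at 8, whereas *CTNNB1* and *TLE1* lie among the 11770 genes at 0.

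The counts can be read against all other genes and against gene size. Only 6 genes of 20033 had as many summits as *TLE4* or more, *TLE4* included, and 55 had as many as *TLE3*, 129 as *TCF7L2* and 286 as *LEF1*. The median over all protein-coding genes was 0 and the highest count was 18. The member genes were longer than most, with a median length of 95290.5 bp against 27471 bp, and had a median of 21 annotated TSSs against 5, so the rule searched more sequence around them. Per Mb of sequence searched, *TLE4* had 18.8 summits, *TLE3* 14.6, *TCF7L2* 8.44 and *LEF1* 8.36. The other members with a summit had 1.49 (*TCF7L1*) to 3.54 (*BCL9*). The chromosomes as a whole, with sequence far from genes included, had 1.19. The density in like spans around all protein-coding genes was not computed. *CTNNB1* had 48 TSSs and no summit. The sequence searched around it, 542994 bp, was slightly shorter than for *TLE3* (546672 bp), the shortest of the 4 genes above. The longest was that of *TCF7L2* (710985 bp). *TLE1*, also without a summit, had 576027 bp searched, more than *TLE3*.

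The position of the summits differed among the genes. A TCF7L1 summit lay inside the gene itself for 4 members (*TCF7L2*, *LEF1*, *TLE3* and *TLE4*), where 7.21% of all protein-coding genes had one. Within 2.5 kb of a TSS there was a summit for 2 members, *TLE3* and *TLE4*, where 4.8% of all genes had one. Of the 36 summits, 12 were in introns, 1 was in the non-coding part of an exon and 23 were outside the gene. By distance from the nearest TSS of the member gene, 8 lay within 2.5 kb, 10 between 2.5 and 50 kb, 5 between 50 and 100 kb and 13 between 100 and 250 kb. For 30 summits (83.3%) no other protein-coding gene had a nearer TSS. The 6 exceptions were nearest to *PPP2CA*, *TRABD2A*, *HABP2*, *SGMS2*, *CHD1L* and *TLE6*.

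**Figure D2:**
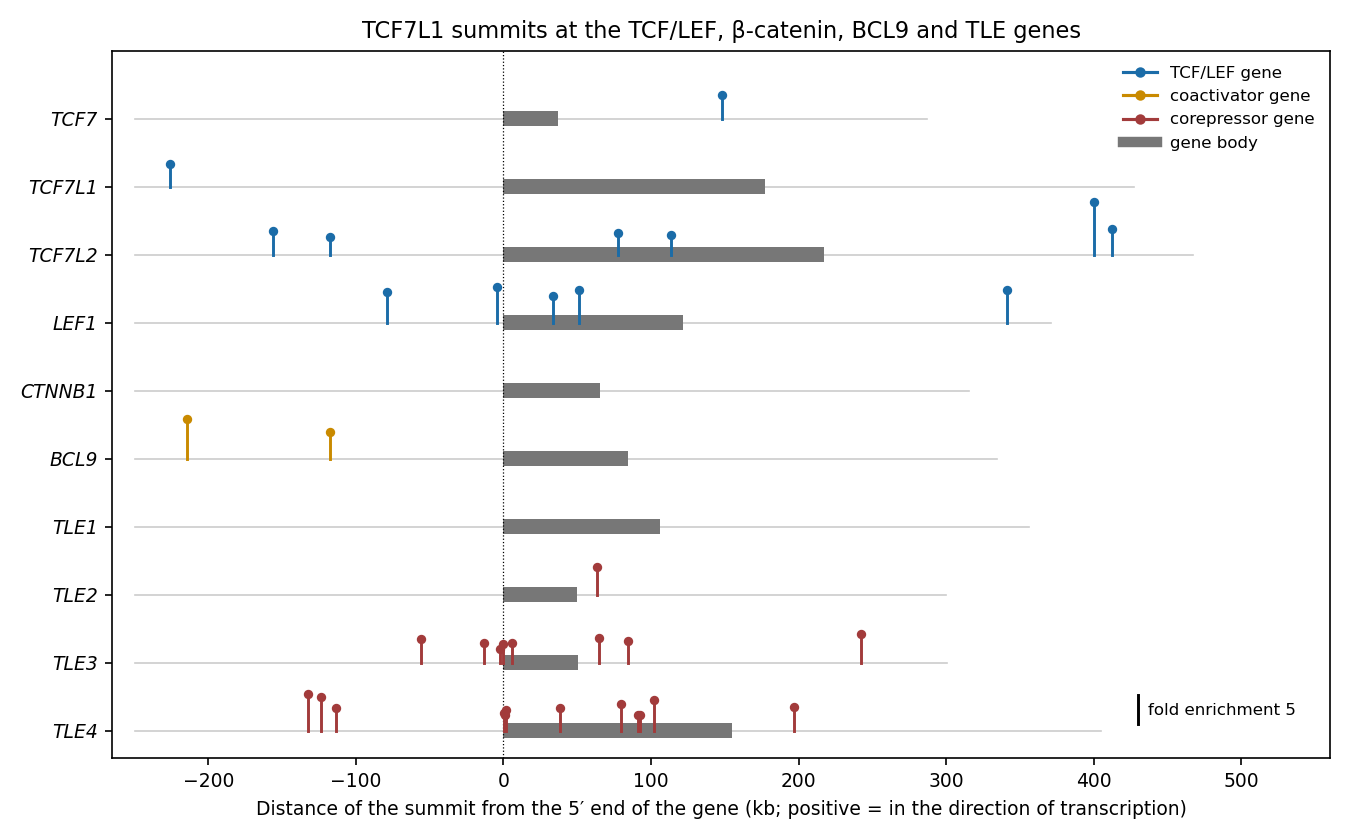
TCF7L1 summits around each gene, by distance from the 5′ end of the gene record (kb, positive in the direction of transcription). Grey bars are gene bodies, thin lines span from 250 kb before the 5′ end to 250 kb past the gene end, and the height of each pin is the fold enrichment. Summits cluster at the starts of *TLE3* and *TLE4*, and the tallest pin is 183 kb past the end of *TCF7L2*.

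The sequences at the strongest of these sites show which of them carry the element that TCF factors are known to bind. The core pattern was CTTTG followed by A or T at each of the next 2 bases, on either strand, set in capitals (ATCAAAG, for example, is CTTTGAT on the other strand). It was searched in windows of 201 bases centred on the summit, written here on the forward strand of GRCh38/hg38. Shown are 7 of the 8 regions of highest fold enrichment among the 30 summits that lie inside a member gene or nearest to its TSS, and the region just before the start of *TLE3*. The core was present in 5 of these 8 windows. They were picked for strength or, at the start of *TLE3*, for position, so this is not the share of the family. Over all member regions it was 10 of 34 (29.4%), near the 26.8% of all TCF7L1 regions on chromosomes.
TCF7L2 183 kb past the gene end (chr10:113350396-113350596): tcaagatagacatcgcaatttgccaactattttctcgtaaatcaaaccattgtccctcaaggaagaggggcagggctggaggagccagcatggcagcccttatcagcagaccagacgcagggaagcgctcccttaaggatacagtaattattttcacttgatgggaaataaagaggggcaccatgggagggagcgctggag
LEF1 4.40 kb upstream (chr4:108173259-108173459): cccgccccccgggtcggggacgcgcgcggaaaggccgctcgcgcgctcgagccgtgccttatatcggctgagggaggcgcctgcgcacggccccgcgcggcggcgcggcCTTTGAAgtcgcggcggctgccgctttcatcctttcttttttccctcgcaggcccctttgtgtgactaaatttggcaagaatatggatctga
LEF1 intron 3 (chr4:108117581-108117781): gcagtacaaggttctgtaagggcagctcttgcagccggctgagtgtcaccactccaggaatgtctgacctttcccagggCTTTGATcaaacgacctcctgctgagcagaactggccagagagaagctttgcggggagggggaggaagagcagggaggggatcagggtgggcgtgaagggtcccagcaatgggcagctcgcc
LEF1 78.9 kb upstream (chr4:108247788-108247988): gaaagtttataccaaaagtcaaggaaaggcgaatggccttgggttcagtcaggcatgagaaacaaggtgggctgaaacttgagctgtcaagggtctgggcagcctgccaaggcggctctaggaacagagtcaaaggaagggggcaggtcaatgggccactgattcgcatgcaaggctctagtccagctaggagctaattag
TLE3 192 kb past the gene end (chr15:69855713-69855913): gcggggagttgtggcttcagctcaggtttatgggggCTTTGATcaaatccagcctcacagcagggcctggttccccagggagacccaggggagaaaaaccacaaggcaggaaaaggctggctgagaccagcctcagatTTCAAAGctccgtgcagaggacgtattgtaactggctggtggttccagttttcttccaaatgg
TLE3 0.383 kb upstream (chr15:70098459-70098659): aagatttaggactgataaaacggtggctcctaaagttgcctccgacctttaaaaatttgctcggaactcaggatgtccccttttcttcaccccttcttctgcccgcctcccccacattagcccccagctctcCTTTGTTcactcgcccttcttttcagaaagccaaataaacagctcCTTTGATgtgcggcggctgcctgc
TLE4 124 kb upstream (chr9:79447857-79448057): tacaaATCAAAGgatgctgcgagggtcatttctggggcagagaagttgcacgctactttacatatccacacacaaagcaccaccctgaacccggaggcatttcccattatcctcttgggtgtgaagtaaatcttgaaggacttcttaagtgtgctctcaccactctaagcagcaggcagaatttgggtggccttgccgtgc
TLE4 intron 8 (chr9:79673904-79674104): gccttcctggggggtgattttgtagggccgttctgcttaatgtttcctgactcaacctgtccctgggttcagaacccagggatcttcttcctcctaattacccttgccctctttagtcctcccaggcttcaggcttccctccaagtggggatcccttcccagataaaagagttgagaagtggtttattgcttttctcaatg

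Among the TCF/LEF genes, *TCF7L1* itself, on chromosome 2 at 85133392 to 85310387, was examined first, since a factor at its own gene would be a simple feedback loop. No TCF7L1 summit lay inside the gene or within 2.5 kb of any of its 4 TSSs, and the exons that the plasmid's coding sequence shares with the gene held no region. The 1 summit assigned to it was 226 kb upstream, in chr2:84907087-84907464. Its fold enrichment, the reads stacked at the summit over the local background with 1 added to both, was 3.88. It stacked 19 reads (exact Poisson interval 11.4 to 29.7) over a background of 4.15 reads. That summit was 0.269 kb before a TSS of *TRABD2A*, and 5 protein-coding genes held it by the same rule. *TCF7*, which encodes TCF1, was similar. Its 1 summit (chr5:134262485-134262813, fold enrichment 4.11, 18 reads over a background of 3.63) was 111 kb past the end of the gene and nearest to *PPP2CA*, and 57.9% of the words in its window occurred more than once in the genome. Neither gene therefore had a summit at its own promoter or body, and a summit at such a distance was shared with neighbouring genes.

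*TCF7L2*, which encodes TCF4, had 6 regions spread over its surroundings on chromosome 10, and 2 were inside the gene. These lay in intron 4 (chr10:113027670-113028181, fold enrichment 3.84, 24 reads) and intron 5 (chr10:113063336-113063661, fold enrichment 3.49, 24 reads) of its main (MANE) transcript, 77.1 kb and 62.0 kb from the nearest TSS. A pair upstream, 156 kb (chr10:112793638-112794050) and 118 kb (chr10:112832221-112832604) from the first TSS, had fold enrichments of 4.18 and 3.11 with 27 and 16 reads. All 4 were below the median of 5.02 over all TCF7L1 regions. No summit was within 2.5 kb of any of its 25 TSSs.

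The strongest region of the whole family was on the far side of *TCF7L2*. At chr10:113350248-113350757 it had a fold enrichment of 9.15, a −log10 q-value of 26.5 and 47 reads (interval 34.5 to 62.5) over a background of 4.25. This fold enrichment ranked 73 among the 3663 TCF7L1 regions, and it was the only member region in the highest 10%. The summit was 183 kb past the end of *TCF7L2*, which nevertheless had the nearest protein-coding TSS, 189 kb away. A weaker region, chr10:113362296-113362973 (fold enrichment 4.54, 28 reads), followed 12.3 kb further on and was nearer to *HABP2*, at 188 kb. The sequence printed above for the strongest region held no TCF core, and neither did the 100 bp on each side of the other 5 *TCF7L2* summits. Over whole regions, 1 of the 6 held a core, 196 bp from its summit, where 17 of the 34 member regions held one. The share over all TCF7L1 regions was not computed for whole regions.

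*LEF1*, a TCF factor that activates with β-catenin, had 5 regions, which had the highest median fold enrichment of the 4 genes with 5 or more summits. Their fold enrichments ran from 4.64 to 6.12 with a median of 5.58. The region nearest to the gene's start, chr4:108173144-108173571, was 4.40 kb upstream and had a fold enrichment of 6.12 with 37 reads (interval 26.1 to 51.0) over a background of 5.21. Its summit was 0.019 kb past a TSS of *LEF1-AS1*, the antisense transcript that starts beside *LEF1*, and the core CTTTGAA was centred 12 bp from it.

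Within the gene there were 2 regions, both in intron 3 of the MANE transcript of *LEF1*. The region chr4:108117490-108117858 had a fold enrichment of 5.58 with 21 reads and a CTTTGAT centred 18 bp from its summit. In chr4:108135299-108135859 the values were 4.64 and 14 reads, and the nearest core was 284 bp away. The remaining regions were chr4:108247727-108248133, 78.9 kb upstream with a fold enrichment of 5.36 and 16 reads, and chr4:107827474-107828016, 220 kb past the gene end with 5.64 and 23 reads. The last of these was 2.53 kb from a TSS of *SGMS2* and close to the search limit of 250 kb. Of the 5 *LEF1* regions, 2 held a core within 100 bp and 4 held one somewhere in the region, where 17 of the 34 member regions did. Again, no share over all TCF7L1 regions was computed for whole regions.

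Like *TCF7* and *TCF7L1*, the coactivator genes had no summit inside the gene or within 2.5 kb of a TSS. *CTNNB1* (chr3:41194741-41260096), the gene for β-catenin, had no summit, and the nearest was 806 kb away with a fold enrichment of 5.18 and *TRAK1* as its nearest gene. *BCL9* (chr1:147541501-147626216), whose protein tethers β-catenin to activating complexes, had 2 summits upstream, at 214 kb (chr1:147327098-147327489, fold enrichment 6.84, 19 reads over 1.92) and 118 kb (chr1:147423422-147423841, 4.70, 12 reads over 1.77). Both were in sequence that recurs in the genome. Their windows' words of 31 bases had a median of 653 and 418 copies, so the reads there cannot be placed with the same certainty as elsewhere. Both also held a CTTTGTT that overlapped the forkhead pattern TGTTTAC.

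Among the corepressor genes, *TLE1* (chr9:81583683-81689547) had no summit within 866 kb. *TLE2* (chr19:2997639-3047635) had 1, in chr19:2984149-2984493, with a fold enrichment of 4.71 and 24 reads over a background of 4.31. It was 13.3 kb past the end of *TLE2* and 0.125 kb inside the start of a *TLE6* transcript, and 17 protein-coding genes held it by the rule, so it could not be attributed to *TLE2* by position. *TLE3* and *TLE4* differed from both. They held 20 of the 36 summits, and no other protein-coding gene held any of the 20.

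*TLE3* (chr15:70047790-70098176, minus strand) had 8 regions, with a group of 3 around its start. The first, chr15:70098347-70098769, had its summit 0.383 kb upstream of a TSS with 70 reads (interval 54.6 to 88.4) over a background of 21.1, and a fold enrichment of 3.21. The second, chr15:70100121-70100520, was 2.09 kb upstream with 49 reads over a background of 19.8 and a fold enrichment of 2.41, the lowest among the 922 TCF7L1 promoter regions, those whose summit had a protein-coding TSS within 2.5 kb. The background of 21.1 was the highest among those 922, whose median was 3.61. The third lay in intron 4 of *TLE3* (chr15:70092001-70092402), 2.60 kb past a TSS, with 42 reads over 11.6 and a fold enrichment of 3.41. At the start of *TLE3*, then, many reads were stacked over a high local background, with fold enrichments of 2.41 to 3.41. Whether that background was counted from an input library or from the same library was not given.

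The other 5 *TLE3* regions lay further out, on both sides of the gene, with backgrounds of 4.37 to 6.79. Upstream they were at 13.5 kb (fold enrichment 3.48) and 56.2 kb (4.12). Past the gene end they were at 14.1 kb (4.28), 34.1 kb (3.72) and 192 kb (chr15:69855612-69856023, 4.92). The last was the strongest of *TLE3* and held 2 cores, CTTTGAT and CTTTGAA. The region at 0.383 kb also held 2, CTTTGTT centred 35 bp and CTTTGAT 80 bp from the summit, and the region at 2.09 kb held CTTTGAA at 85 bp. The remaining 5 regions held none within 100 bp.

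*TLE4* (chr9:79571773-79726882, plus strand) had more summits within 2.5 kb of a TSS than any other protein-coding gene, 6 in 4 regions. A single region, chr9:79572211-79573843, covered 1633 bp of the start of the gene, from exon 1 into intron 1 of the MANE transcript. It was the second widest of all 3663 TCF7L1 regions and held 3 summits, 509 and 537 bp apart, where only 4 of all regions had 3 or more. The summits stacked 65, 57 and 75 reads over backgrounds of 20.5, 20.3 and 20.5, with fold enrichments of 3.07, 2.72 and 3.54. As at *TLE3*, the read number was high and so was the local background. No core lay within 100 bp of these summits, and the 1 in the region, CTTTGAA, was 171 bp from the middle summit.

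The other 3 summits in this class were at internal TSSs of *TLE4*. They lay in intron 6 (chr9:79651325-79651686, 33 reads over 6.32, fold enrichment 4.64) and intron 8 (chr9:79662727-79663039 and chr9:79663914-79664395, each with 34 reads over 12.1 and a fold enrichment of 2.67). Elsewhere in the gene, intron 4 held a region with a fold enrichment of 3.95 and 19 reads. Intron 8 held chr9:79673784-79674286, with 5.34 and 33 reads over 5.36. The sequence of the last carried no TCF core but the AP-1 element TGACTCA, 50 bp from the summit, the 1 AP-1 match among all member regions. A region 41.5 kb past the gene end, chr9:79768191-79768585, had a fold enrichment of 4.10 with 48 reads over 10.9.

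The 2 highest fold enrichments of *TLE4* were in a group of 3 regions upstream. The summits at 132 kb, 124 kb and 113 kb were 8.47 kb and 10.6 kb apart, and no other protein-coding gene held them. The first had a fold enrichment of 6.26 with 47 reads (interval 34.5 to 62.5) over 6.67 and a −log10 q-value of 18.5, and the second, chr9:79447591-79448358, had 5.90 with 34 reads over 4.93. The third, chr9:79458317-79458626, was weak, at 3.85 with 10 reads over 1.86. In the window of the first, 58.5% of the words were repeated in the genome, with a median of 7 copies. It is among the 3 *TLE4* regions with a TCF core within 100 bp of the summit. The second held a CTTTGAT 92 bp from its summit.

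To compare the strength of the family's regions with the rest, the fold enrichment was split into reads and background. The 34 member regions had a median fold enrichment of 4.15 (interval 3.84 to 4.71), against 5.02 (4.97 to 5.07) over all TCF7L1 regions, and 9 of 34 (26.5%, 14.6 to 43.1%) reached a fold enrichment of 5, as 50.6% of all regions did. Their median number of reads was 26.5 (21 to 34) against 20, and their median background was 5.07 (4.25 to 6.17) against 3.26 (3.19 to 3.35). In these medians the lower fold enrichment went with a higher background, not with fewer reads. By gene, *TCF7L2*, *TLE3* and *TLE4* had this pattern. *LEF1* did not, with a median fold enrichment of 5.58 and a median background of 2.95 reads. Regions of the same gene are not independent, and 18 of the 34 were at *TLE3* and *TLE4*, so the intervals are not a test against all regions. A background above the median of all regions was found at 27 of the 34 regions, including 17 of the 18 at *TLE3* and *TLE4* and 6 of 6 at *TCF7L2*, but 1 of 5 at *LEF1*. The −log10 q-values had similar medians, 5.66 and 5.50. Why the background was high there was not tested, nor whether it held reads of the TCF7L1 precipitation itself.

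**Figure D3:**
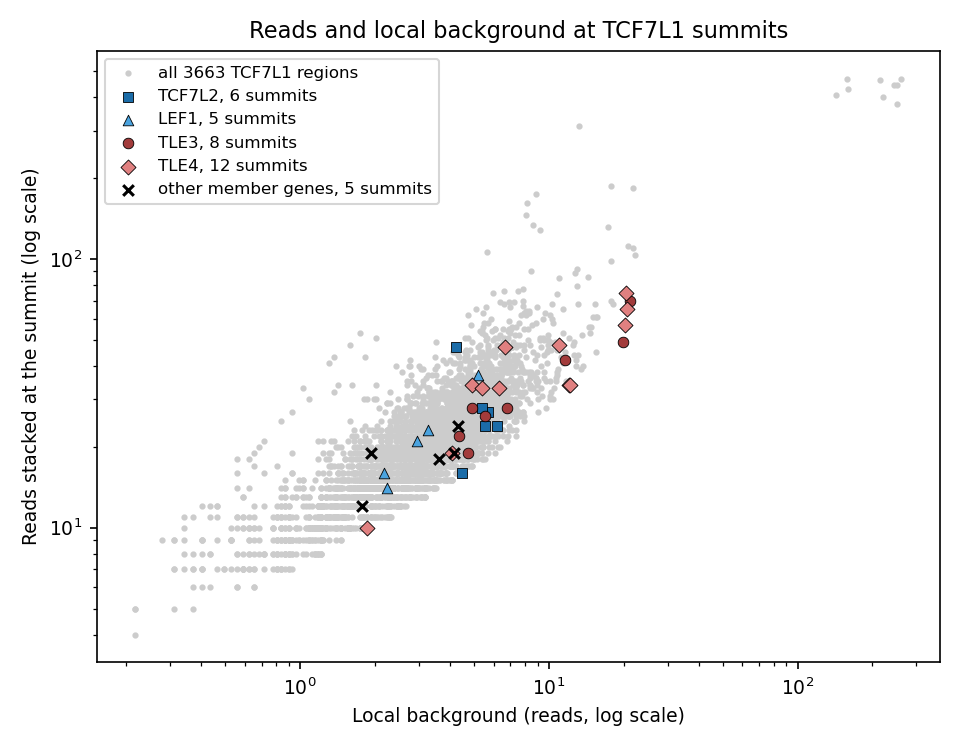
Reads stacked at the summit against the local background, both in reads on log scales, for all 3663 TCF7L1 regions (grey) and the 36 member summits by gene. The summits within 2.5 kb upstream of *TLE3* and those in the wide region at the start of *TLE4* lie at the right. Their backgrounds are 19.8 to 21.1 reads, and those of the *LEF1* summits lie between 2.17 and 5.21.

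The share of regions with a TCF core was near that of all TCF7L1 regions. The core lay within 100 bp of the summit in 10 of 34 member regions (29.4%, 16.8 to 46.2%), where 26.8% of the TCF7L1 regions on chromosomes had it. In windows of mostly single-copy sequence the shares were 23.3% (7 of 30) and 21.0%. By gene, 3 of 8 *TLE3* regions, 3 of 10 *TLE4* regions, 2 of 5 *LEF1* regions, both *BCL9* regions and 0 of 6 *TCF7L2* regions had a core. The looser pattern TTTKAW (K is G or T, W is A or T), which the paper links to TCF7L1, was in 15 of 34 (44.1%, 28.9 to 60.5%). Of all regions, 53.6% had it. The strongest *TCF7L2* region held it as TTTGAT, and the weaker region beside it as TTTGAA. The AP-1 pattern TGACTCA or TGAGTCA, bound by JUN and FOS proteins, was in 1 of 34, where 7.39% of all regions had it. The forkhead pattern TATTTAC or TGTTTAC was in 4 of 34, where 12.7% of all regions had it, and in 3 of the 4 it overlapped a CTTTGTT, since the 2 patterns can share bases. A match of letters does not show which factor bound.

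**Figure D4:**
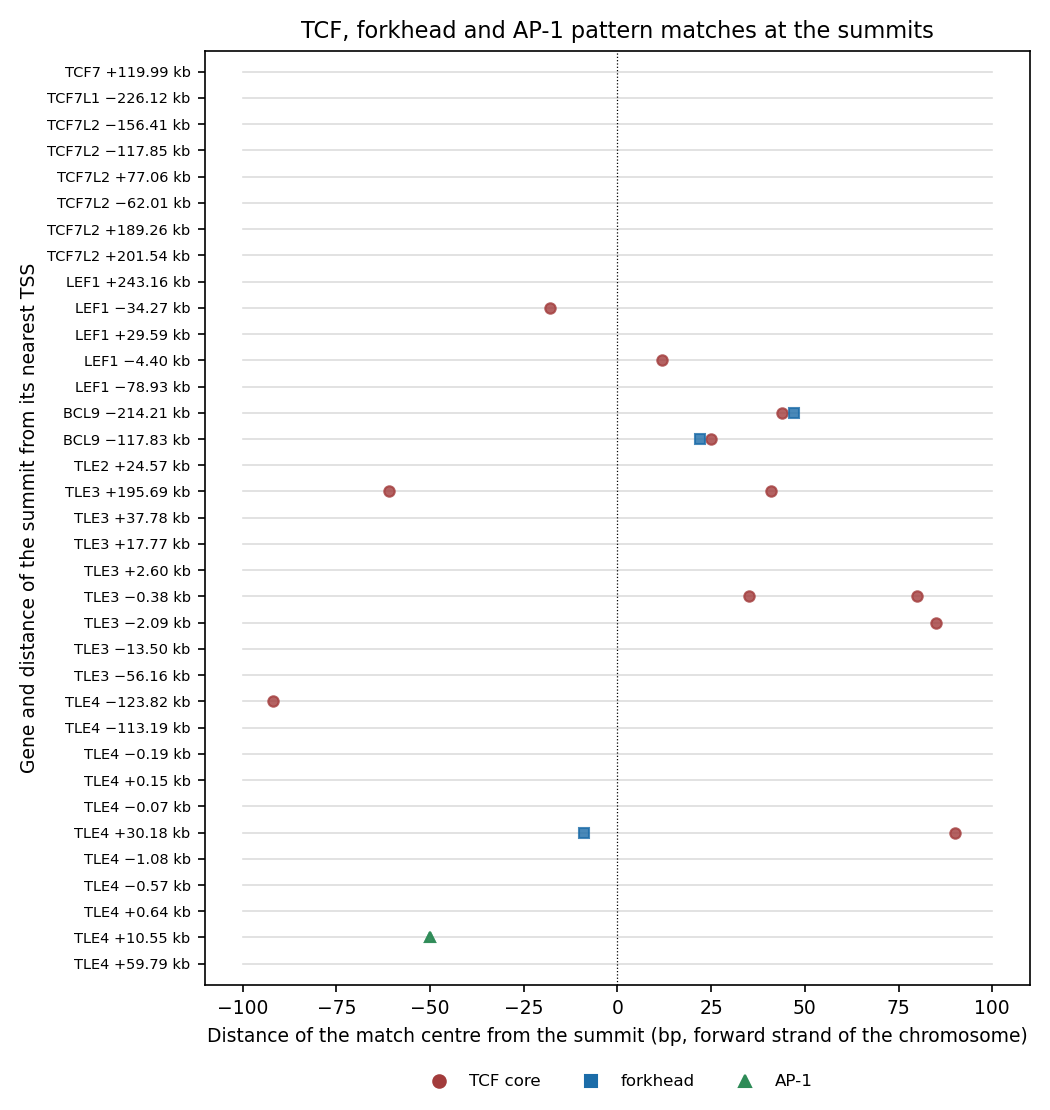
Matches of the TCF core (circles), forkhead (squares) and AP-1 (triangle) patterns within 100 bp of 35 of the 36 summits, by distance from the summit in bp along the forward strand. Rows are labelled with the gene and the distance of the summit from its nearest TSS in kb. The 1 summit left out is that 132 kb upstream of *TLE4*. Cores lie at 12 bp and 18 bp from 2 *LEF1* summits, and the 6 *TCF7L2* rows are empty.

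The mutant protein was used to ask whether any of these regions was called without an intact HMG domain. None of the 34 member regions overlapped a TCF7L1-MUT region by 1 bp or more (0%, upper bound 10.2%), where 3.6% of all TCF7L1 regions did. No member gene had a TCF7L1-MUT summit, where 1.62% of protein-coding genes had one, so 0 of 10 is near that background. The nearest TCF7L1-MUT summit to a member gene's TSS was 2.91 Mb away, at *TLE2*, and the furthest was 56.3 Mb away, at *LEF1*. Chromosome 15, which carries *TLE3*, had none. With 1 library per group, an effect of the mutation and a less efficient precipitation in that sample cannot be told apart.

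To place the family among other nuclear Wnt cofactors, 25 genes for coactivators, corepressors, kinases and adaptors of the pathway were counted in the same way. Of these, 14 had a TCF7L1 summit (56.0%, 37.1 to 73.3%), where 41.2% of all protein-coding genes did. The list was picked by hand and some of its genes counted through a shared region, so the intervals are not a test against all genes. A summit lay inside the gene for 5 (20%, 8.86 to 39.1%), against 7.21% of all genes, and within 2.5 kb of a TSS for 2 (8%, 2.22 to 24.97%), near the 4.8% of all genes. None had 5 or more summits (1.43% of all genes) or a TCF7L1-MUT summit (1.62%). The 5 with a summit inside were *TLE6*, by the region shared with *TLE2*, *SSBP2*, *CTNNBIP1*, *CREBBP* and *TNIK*. At *SSBP2*, whose protein is an adaptor of LDB complexes, the summit was in intron 3 and 17 bp from a TSS, with a fold enrichment of 6.83 and 16 reads over 1.49. *CTNNBIP1* encodes an inhibitor that keeps β-catenin from TCF factors, and its summit was in intron 1 with a fold enrichment of 4.19. *TNIK*, a kinase of the TCF4 complex, had 5.80 in intron 1, and *CREBBP*, an acetyltransferase recruited by β-catenin, had 4.43 in intron 2.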

How the data were processed

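ChIP-seq regions of 2 HCT116 samples, TCF7L1 and TCF7L1-MUT, were used as deposited. Their group is the labels' genotype. Per the methods, the authors trimmed reads with skewer, mapped them to GRCh38/hg38 with BWA (0.7.12) and called peaks with MACS2 (2.1.0) for each sample. The use of an input library, the q-value limit and the handling of duplicate or multiply mapped reads were not given in the sources used here, and these choices change which regions are listed in repeated sequence.

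The deposited fold enrichment is a ratio of reads stacked at a summit to local background, with a pseudocount of 1 in each. The deposited −log10 p-values and −log10 q-values are those of the peak caller. The deposited score and summit lists repeat the −log10 q-values and were not used. Reads at each summit, as a whole number, and the background were obtained by solving a Poisson model for the deposited fold and p-value, which matched within 0.001 in −log10 p for 100% of TCF7L1 summits.

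Summits were set against GENCODE release 44. A region with several summits is represented by the one with the highest −log10 q-value. Overlap needed 1 bp. Patterns were searched on both strands within 100 bp of the summit in 3573 regions on chromosomes 1 to 22, X and Y. Multi-copy windows are those where 50% or more of the 31-base words occurred more than once. Intervals are Wilson (shares), binomial (medians) and exact Poisson (reads). No test was made with 1 sample per group. All 10 genes were named, and cofactors only with a summit inside or within 2.5 kb. The genes and the cofactor list were chosen with earlier results of these data known. Alternatives changed the search and promoter distances, TSS set, region edge, q-value, fold enrichment, window, pattern and single-copy filter. The sequence of 1 *TLE4* window is not reported here. Code was checked on simulated data. Python 3.11.15, NumPy 2.4.6, SciPy 1.17.1, numba 0.67.0 and matplotlib 3.10.9 were used.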

Additional observations from a re-analysis of the deposited data

How the results depend on the processing

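Of 64 alternatives over 10 results, 53 kept the value within the limits set for a change, and 11 did not. With a search distance of 100 kb in place of 250 kb, 5 member genes had a TCF7L1 summit (*TCF7L2*, *LEF1*, *TLE2*, *TLE3* and *TLE4*; 23.1% of all genes) and 23 summits were assigned. At 500 kb, 8 members had one, as 61.6% of all genes did, and 23 of the 25 cofactors did. With a fold enrichment of at least 5, 4 members kept a summit (*TCF7L2*, *LEF1*, *BCL9* and *TLE4*; 22.3% of all genes) out of 9 summits in all. Under that setting 2 members had a summit inside, 0 had one within 2.5 kb of a TSS, 7 summits were nearest to a member, 5 regions held the TCF core, the median fold enrichment was 5.90 by construction, and 5 cofactors had a summit. Apart from the 22.3% of genes with any summit, shares over all genes or regions were not computed under that setting. These counts are therefore not a result about the family. *TLE3* had no region at that level. In single-copy sequence alone, 6 members had a summit, without *TCF7* and *BCL9*, where 35.3% of all genes did. The counts of 0 for TCF7L1-MUT summits and shared regions stayed at 0 under all 13 of their alternatives, which are part of the 53. None of these could have raised them, since the nearest TCF7L1-MUT summit to a member TSS was 2.91 Mb away. They therefore say nothing about robustness. No paired analysis was possible because there was 1 sample per group, which also meant that no sample could be left out. The files list called regions only, so the absence of regions at *CTNNB1* and *TLE1* means that none was called there.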

Other observations

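Beyond the limit of 250 kb, further TCF7L1 summits lay around *TLE4* and *TLE3*. A region 315 kb upstream of *TLE4*, chr9:79256698-79258323, was the third widest of all 3663 regions at 1626 bp and had a fold enrichment of 7.19 with 131 reads over a background of 17.4 and a −log10 q-value of 61.0, which ranked 13. Its second summit, at 314 kb, had 2.90. *TLE4* had the nearest protein-coding TSS to both. A summit 251 kb upstream of *TLE3*, with a fold enrichment of 3.08, was the closest one left out, and the summit 243 kb from a TSS of *LEF1*, with 5.64, was the furthest one kept.

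Promoters in RefSeq's GRCh38.p14 table, 250 bases before to 50 after a start, were available for all 10 genes. The TCF core was in 2 of them, *TCF7* (CTTTGTT) and *TLE4* (CTTTGAA), where 13.8% of 35116 promoters held it. The *TLE4* promoter was the 1 that overlapped a TCF7L1 region. A single promoter per gene was counted. For *TCF7*, *TCF7L2*, *LEF1*, *CTNNB1*, *TLE2*, *TLE3* and *TLE4* it lay inside the GENCODE gene, past its first start. That of *TLE3* was chr15:70094740-70095039, so the regions just upstream of the gene's first start, described above, were not covered by it.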
